A study of Mus musculus with 4 samples.

Results

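Cysteinyl leukotriene synthesis was followed through 7 of the 32285 genes counted in hindlimb muscle of irradiated mice. The 7 were Ltc4s, Alox5, Alox5ap, Lta4h, Mgst2, Mgst3 and Cysltr1, chosen by symbol because Ltc4s was already known to be high in irradiated endothelial cells of these same libraries, so its levels there are a description and carry no test. All 7 had UMIs, the counts of single captured transcripts, in all 4 libraries. The question was in which cells each step of the pathway was transcribed, and whether the genes that make the substrate of Ltc4s sat in the cells that held Ltc4s.

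Single-cell libraries were made from male C57Bl/6J mice whose 1 hindlimb was irradiated at age 5 weeks with 3 doses of 8.2 Gy. The irradiated limb (IR) and the shielded contralateral limb of the same animals (CON) were taken 24 hours after the last dose or 56 days after irradiation. The 4 groups were thus IR 24 hours, CON 24 hours, IR 56 days and CON 56 days, with 1 library each, made from 3 pooled limbs and at least 10000 sorted live mononucleated cells. CON limbs belonged to irradiated animals, and no limb of an animal that was never irradiated was among the samples. With 1 library a group there was no replicate and no test, so levels, shares and ratios are given with exact 95% intervals that cover counting error only.

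The files held 2763, 1030, 1471 and 1822 barcodes in the IR 24 hours, IR 56 days, CON 24 hours and CON 56 days libraries, with 4715202 to 10121978 UMIs a library. After filters 6544 barcodes remained, with a median depth between 3057 and 3627 UMIs a library, and 10 barcode sequences were found in more than 1 library over all pairs. Barcodes were assigned to a class by marker genes, none of them a member. The 3227 endothelial barcodes held a median of 9 of 10 endothelial markers, 403 barcodes that passed several gates were set aside as mixed, and classes differed in number between libraries: CON 56 days held 211 neutrophils, against 16 to 34 in the other libraries. The p53 target Cdkn1a, which checks the irradiation labels, stood in endothelial barcodes at 2382 CPM (here the UMIs of the gene scaled to all UMIs of the class) in IR 24 hours against 316 CPM in CON 24 hours, and at 1451 CPM in IR 56 days against 164 CPM in CON 56 days.

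Leukotrienes are lipid mediators made from arachidonic acid. 5-Lipoxygenase (Alox5), helped by the membrane protein FLAP (Alox5ap), makes leukotriene A4. Leukotriene A4 hydrolase (Lta4h) turns this into leukotriene B4, a neutrophil attractant, while leukotriene C4 synthase (Ltc4s) joins it to glutathione to give leukotriene C4, whose products act on the receptor encoded by Cysltr1 and are known for making small vessels leak. Mgst2 and Mgst3 encode relatives of Ltc4s in the same family of membrane enzymes, and MGST2 can also make leukotriene C4. Leukocytes such as mast cells, eosinophils, macrophages and neutrophils are the classical source of leukotriene A4, and neighbouring cells without 5-lipoxygenase, endothelial cells among them, can take it up and convert it, which is known as transcellular synthesis.

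Ltc4s (ENSMUSG00000020377) lies on chromosome 11 at 50236461 to 50238616, minus strand, in mm10. Its promoter is shown because the largest difference among the members was in this gene. The window runs from 250 bases before to 50 bases after the RefSeq start site, at chr11:50238483-50238782 on the minus strand (RefSeq, GRCm38.p6), and capitals mark CACCC on either strand.
Ltc4s promoter: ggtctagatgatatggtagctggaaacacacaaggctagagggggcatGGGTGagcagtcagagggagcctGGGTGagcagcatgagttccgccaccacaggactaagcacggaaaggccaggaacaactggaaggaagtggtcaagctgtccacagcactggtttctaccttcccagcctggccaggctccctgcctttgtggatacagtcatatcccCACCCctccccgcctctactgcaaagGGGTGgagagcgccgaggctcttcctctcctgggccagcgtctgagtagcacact
CACCC, the core of Krüppel-like factor sites, occurred 4 times without overlap, starting 202, 179, 31 and 5 bases before the RefSeq start site. The mm10 gene span given above starts further upstream, at 50238616 within this window. By that span the matches at 31 and 5 bases lie inside the gene. CACCC was present, in any number of matches, in 57.5% of 32851 promoter windows of this length. A p53 half-site was not found in these 300 bases, and 8.36% of the windows held one. The other members, all protein coding like Ltc4s, lie in mm10 on chromosome 6 at 116410077 to 116461178 (Alox5, minus strand), chromosome 5 at 149264767 to 149288153 (Alox5ap, plus strand), chromosome 10 at 93453411 to 93484875 (Lta4h, plus strand), chromosome 3 at 51660360 to 51682677 (Mgst2, plus strand), chromosome 1 at 167371966 to 167393841 (Mgst3, minus strand) and chromosome X at 106574346 to 106603679 (Cysltr1, minus strand).

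Ltc4s RNA was abundant in irradiated endothelium and scarce in the contralateral limbs at both times. Endothelial barcodes held 1464 Ltc4s UMIs in IR 24 hours and 890 UMIs in IR 56 days, against 17 UMIs in CON 24 hours and 35 UMIs in CON 56 days. Scaled to the class total this came to 269 CPM (256 to 284) in IR 24 hours against 9.82 CPM (5.72 to 15.7) in CON 24 hours, and to 468 CPM (438 to 500) in IR 56 days against 13.7 CPM (9.56 to 19.1) in CON 56 days. The IR and CON intervals stood far apart at each time. The ratio of IR to CON was 27.4 (17.1 to 47.2; log2 4.78) at 24 hours and 34.1 (24.3 to 49.3; log2 5.09) at 56 days. By size of ratio Ltc4s had rank 25 of the 10923 genes with at least 20 summed UMIs in endothelial barcodes at 24 hours and rank 4 of 10107 at 56 days. Genes without any CON UMI were placed above it. Ltc4s was chosen for this difference, so its ranks only describe it. Between the times, the level in IR 56 days was 1.74 times (1.60 to 1.89) that in IR 24 hours, while the ratio of CON 56 days to CON 24 hours was 1.40 (0.763 to 2.66), an interval that includes 1.

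The Ltc4s UMIs were spread over many endothelial cells. In IR 24 hours 502 of 1512 endothelial barcodes (33.2%) had a UMI, against 15 of 469 (3.20%) in CON 24 hours, and in IR 56 days 211 of 469 (45.0%) against 24 of 777 (3.09%) in CON 56 days. The median depth of these barcodes was 3042 UMIs in IR 24 hours, 3299 in CON 24 hours, 3492 in IR 56 days and 2915 in CON 56 days. The richest single barcode held 2.32% and 2.58% of the endothelial Ltc4s UMIs in IR 24 hours and IR 56 days. B cells, taken as a class that should lack the gene, had an Ltc4s UMI in 0 of 106 barcodes in IR 24 hours, which allows a share of up to 2.83%, and in 0 of 60 in IR 56 days, which allows up to 5.0%. In B cells of the CON libraries the gene was seen in 1 of 246 (0.407%) at 24 hours and 1 of 74 (1.35%) at 56 days, and the B-cell median depth was 3043.5 to 3219.5 UMIs. The share in CON endothelium was above these values, but its exact interval overlapped that of the B cells, at 24 hours (1.80% to 5.22% and 0.0103% to 2.24%) and at 56 days (1.99% to 4.56% and 0.0342% to 7.30%).

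The shares also differed at equal depth. With every barcode thinned to 1000 UMIs, Ltc4s was seen in 18.6% of 1292 endothelial barcodes in IR 24 hours against 0.485% of 412 in CON 24 hours, and in 30.1% of 415 in IR 56 days against 1.04% of 671 in CON 56 days. Shallower barcodes were left out, 220 in IR 24 hours, 57 in CON 24 hours, 54 in IR 56 days and 106 in CON 56 days. Barcodes with 3 or more Ltc4s UMIs after thinning made up 2.24% in IR 24 hours and 6.02% in IR 56 days. None of the thinned CON barcodes held 3 or more, which allows up to 0.728% at 24 hours and 0.447% at 56 days.

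**Figure D1:**
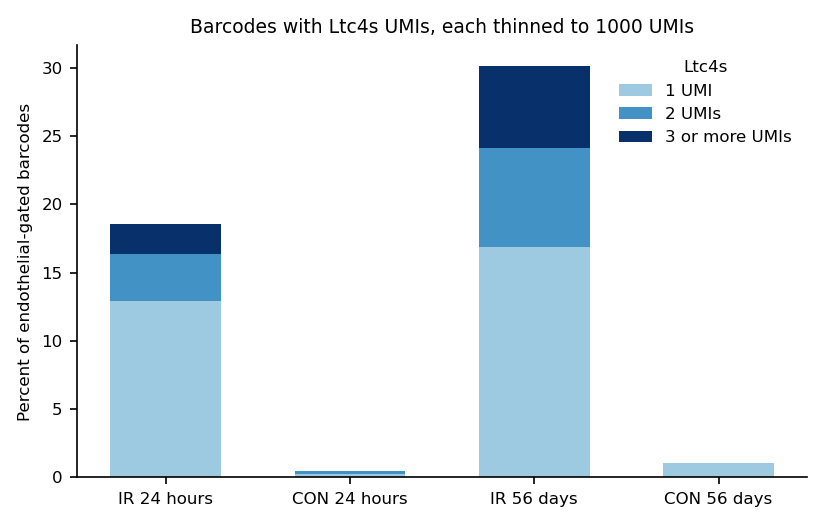
Percent of endothelial barcodes with 1, 2 or 3 and more Ltc4s UMIs (shades of blue) after each barcode was thinned to 1000 UMIs, 1 bar per library. Bars reach 18.6% in IR 24 hours and 30.1% in IR 56 days, and 0.485% in CON 24 hours and 1.04% in CON 56 days, where no barcode had 3 or more.

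Endothelial barcodes with Ltc4s held few UMIs of macrophage markers. Barcodes that also passed the macrophage gate had been set aside as mixed. A low level was thus partly fixed by the gate, with or without Ltc4s. The summed level of the 12 monocyte or macrophage markers was 9.86 CPM in endothelial barcodes with an Ltc4s UMI and 12.3 CPM in those without one in IR 24 hours, and 15.5 CPM with and 32.3 CPM without in IR 56 days. In the CON libraries it was 10.9 CPM with and 19.5 CPM without an Ltc4s UMI at 24 hours, and 33.6 CPM with and 20.2 CPM without at 56 days. The CON values with an Ltc4s UMI rest on 1 UMI at 24 hours and 4 UMIs at 56 days. The 7 mast cell markers had 0 UMIs in all 3227 endothelial barcodes. Mast cells and eosinophils are known makers of leukotriene C4. In these libraries 2 mast barcodes and no eosinophil or basophil barcode passed their gates, and both mast barcodes had 0 Ltc4s UMIs.

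All 4 vessel subtypes held Ltc4s in the irradiated limb, at the highest levels in capillary and tip-like barcodes. Tip-like, venous and arterial barcodes could also hold capillary markers, which their gates did not exclude. Capillary barcodes (carbonic anhydrase Car4, Gpihbp1 and others) stood at 350 CPM in IR 24 hours against 14.9 CPM in CON 24 hours, and at 763 CPM in IR 56 days against 16.6 CPM in CON 56 days. Tip-like barcodes (Apln, Esm1), the migrating front of sprouting vessels, stood at 287 CPM in IR 24 hours against 13.7 CPM on 1 UMI in CON 24 hours, and at 509 CPM in IR 56 days against 40.7 CPM on 3 UMIs in CON 56 days. Capillary and tip-like intervals overlapped in IR 24 hours (328 to 373 and 238 to 345 CPM) and did not in IR 56 days (700.4 to 829 and 416 to 617 CPM).
Venous barcodes, of the segment where leukocytes leave the blood, held 106 Ltc4s UMIs (199 CPM) in IR 24 hours and 54 UMIs (241 CPM) in IR 56 days. In the CON limbs 0 of 38 venous barcodes at 24 hours and 0 of 72 at 56 days had one, which allows shares of up to 7.89% and 4.17%. Arterial barcodes were lowest in the irradiated limb, with 120 CPM in IR 24 hours and 201 CPM in IR 56 days, against 0 UMIs in 84 barcodes in CON 24 hours (up to 3.57%) and 5 UMIs (9.39 CPM) in CON 56 days. The venous and arterial intervals did not overlap in IR 24 hours (163 to 240.3 and 100.3 to 141 CPM) and overlapped in IR 56 days (181 to 314 and 164 to 244 CPM).

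**Figure D2:**
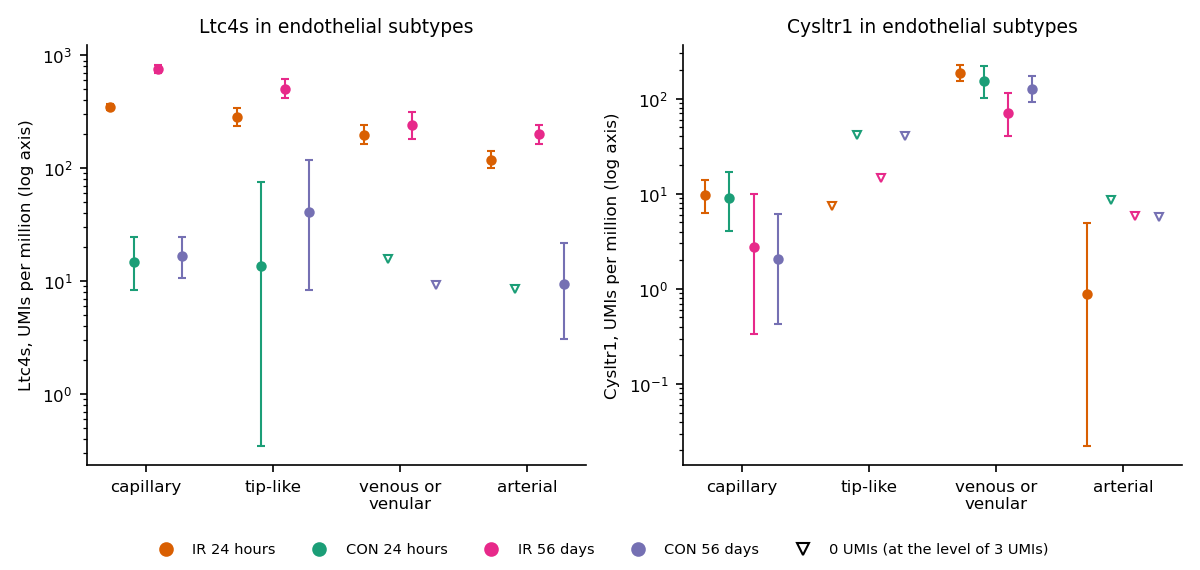
Ltc4s (left) and Cysltr1 (right) in 4 endothelial subtypes, in CPM on a log axis, with exact 95% counting intervals. Points are libraries, and open triangles mark 0 UMIs at the level of 3 UMIs. Ltc4s was at 120 to 763 CPM in every IR subtype, while Cysltr1 lay mainly in venous barcodes of all 4 libraries.

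Within each IR library, a larger share of the endothelial barcodes with more Cdkn1a UMIs had Ltc4s. In IR 24 hours, thinned barcodes with 3 or more Cdkn1a UMIs had an Ltc4s UMI in 21.4% of 487 (17.8% to 25.3%), those with 1 or 2 in 18.8% of 575, and those with 0 in 12.2% of 230 (8.24% to 17.1%). In IR 56 days the shares were 43.8% of 80 (32.7% to 55.3%), 35.7% of 182 and 16.3% of 153 (10.9% to 23.2%) in the same order. Cells of 1 library are not replicates, and this is a description. Endothelial Cdkn1a in IR 56 days was 0.609 times its level in IR 24 hours, whereas Ltc4s was 1.74 times its own. The bins of Cdkn1a were chosen after its values were seen.

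The genes whose pattern over 28 class-by-library points (7 classes in 4 libraries) was most like that of Ltc4s were AA467197, Ces2e, Cd8b1, Adra2c and Sdcbp2. The 7 classes were those with at least 25 barcodes in every library. Monocyte or macrophage barcodes, the other holders of Ltc4s, and neutrophils were left out by this limit. Their Pearson correlations of log2(CPM + 10) were 0.902, 0.901, 0.895, 0.886 and 0.881 among 12222 genes ranked. The points share their libraries, and the highest Ltc4s levels are those of the 2 IR endothelial points, so these values only describe the likeness. Ces2e, a carboxylesterase gene, stood in endothelium at 50.6 CPM in IR 24 hours against 1.73 CPM in CON 24 hours and at 23.1 CPM in IR 56 days against 0.785 CPM in CON 56 days. Cd8b1 ranked high at only 0.368 CPM in IR 24 hours and 0.526 CPM in IR 56 days. AA467197, Adra2c and Sdcbp2 were also low, at 1.73 to 21.0 CPM in endothelium of the 4 libraries, around the 10 added to each CPM. Cdkn1a had a correlation of 0.478.

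An antisense gene, Gm26542, overlaps Ltc4s on the plus strand, and whether counting used strand is not given in the sources used here. It had 24 UMIs in endothelial barcodes of IR 24 hours against 0 in CON 24 hours, and 9 in IR 56 days against 1 in CON 56 days. Without strand, reads of the pair could not be told apart. Mgat4b, the nearest other gene, had IR to CON ratios of 0.881 (0.729 to 1.07) at 24 hours and 1.83 (1.46 to 2.31) at 56 days.

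Outside the endothelium, monocyte or macrophage barcodes were the other holders of Ltc4s, in all 4 libraries. They had 246 CPM (195 to 307; 79 UMIs) in IR 24 hours against 115 CPM (63.0 to 193; 14 UMIs) in CON 24 hours, and 76.2 CPM (49.8 to 112; 26 UMIs) in IR 56 days against 156 CPM (120 to 199; 64 UMIs) in CON 56 days. The IR to CON ratio was 2.14 (1.20 to 4.09) at 24 hours and 0.490 (0.298 to 0.784) at 56 days, so it lay above 1 at the first time and below 1 at the second. They rest on 46 barcodes in IR 24 hours, 20 in CON 24 hours, 48 in IR 56 days and 55 in CON 56 days, and 1 barcode held 64.3% of the UMIs in CON 24 hours and 42.3% in IR 56 days. With the richest barcode of each library left out, the ratios were 4.91 (2.00 to 15.6) and 0.355 (0.186 to 0.642). Over whole classes, the endothelial and macrophage intervals overlapped in IR 24 hours, and in IR 56 days the endothelial level was higher. In both CON libraries the macrophage level was higher than the endothelial one.

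The macrophage Ltc4s lay entirely in barcodes with complement C1q, a product of tissue macrophages. Of 66 barcodes with at least 3 C1qa, C1qb and C1qc UMIs, 38 had Ltc4s and they held all 183 UMIs, whereas 0 of 103 barcodes with fewer had one, which allows up to 2.91%. The split was chosen after seeing the data, and C1q genes were part of the gate. The C1q-rich barcodes had more of the mannose receptor Mrc1 (1826 against 67.4 CPM) and less of the monocyte gene Ly6c2 (11.8 against 459 CPM). Within them Ltc4s stood at 790 CPM in IR 24 hours (18 barcodes) against 479 CPM in CON 24 hours (7 barcodes), a ratio of 1.65 (0.927 to 3.15). At 56 days it was at 180 CPM in IR (19 barcodes) against 429 CPM in CON (22 barcodes), a ratio of 0.419 (0.255 to 0.670). In IR 24 hours the C1q-rich interval (625 to 984 CPM) lay above that of the whole endothelial class. In IR 56 days it lay below (117 to 263 CPM).

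**Figure D3:**
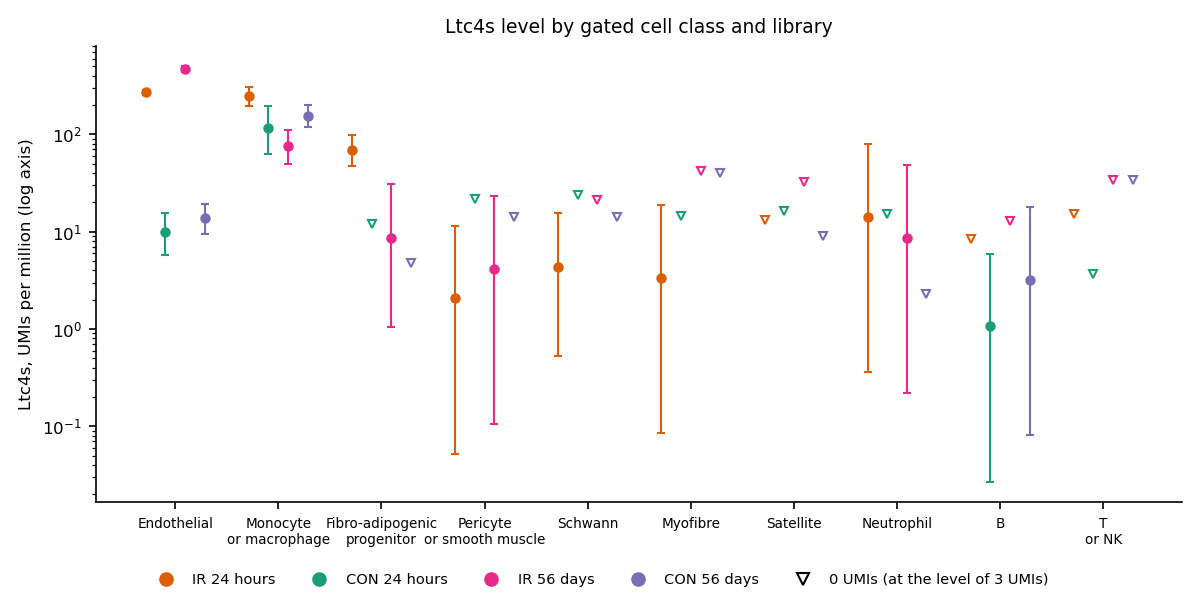
Ltc4s level in 10 gated classes and 4 libraries, in CPM on a log axis, with exact 95% counting intervals. Open triangles mark 0 UMIs at the level of 3 UMIs. Endothelial points of the IR libraries lie at 269 and 468 CPM and those of the CON libraries at 9.82 and 13.7 CPM, while macrophage points lie between 76.2 and 246 CPM in all 4.

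Fibro-adipogenic progenitors, the fibroblast-lineage cells of muscle, held 32 Ltc4s UMIs in 3 of 63 barcodes in IR 24 hours against 0 in 44 barcodes in CON 24 hours, at least 5.79-fold higher against a floor of 3 UMIs. A single barcode carried 27 of the 32 UMIs (84.4%). It had 18711 UMIs, 7 of 9 progenitor markers and no endothelial or macrophage marker. At 56 days the class had 2 UMIs in IR and 0 in CON. Satellite cells, T or NK cells and erythroid cells had 0 Ltc4s UMIs in every library, and no other class held more than 5 in a library, apart from barcodes that were mixed or passed no gate. Of the Ltc4s UMIs in gated barcodes, endothelium held 92.4% (90.9% to 93.6%) in IR 24 hours against 53.1% in CON 24 hours, and 96.5% in IR 56 days against 35.0% in CON 56 days.

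The genes that make leukotriene A4 were in other cells. Alox5 had 0 UMIs in all 3227 endothelial barcodes, which allows a share of up to 0.0930%, the limits being 0.198% of barcodes in IR 24 hours, 0.640% in CON 24 hours and IR 56 days, and 0.386% in CON 56 days. In neutrophils, which use it for leukotriene B4, Alox5 had 19 UMIs (270 CPM) in IR 24 hours against 22 UMIs (111 CPM) in CON 24 hours, and 14 UMIs (121 CPM) in IR 56 days against 187 UMIs (142 CPM) in CON 56 days. The IR to CON ratio in neutrophils was 2.42 (1.24 to 4.69) at 24 hours and 0.853 (0.457 to 1.47) at 56 days. At 24 hours the median log2 ratio over measured neutrophil genes with UMIs in both groups was 0.64, so many genes stood higher in IR. Monocyte or macrophage barcodes had 11 UMIs (34.3 CPM) in IR 24 hours against 7 UMIs (57.6 CPM) in CON 24 hours, and 27 UMIs (79.1 CPM) in IR 56 days against 21 UMIs (51.1 CPM) in CON 56 days, a 56-day ratio of 1.55 (0.844 to 2.88). In IR 24 hours the 32 Alox5 UMIs of gated barcodes were made up of these 19 and 11 and of 2 in a mast barcode.

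Alox5ap, whose product presents arachidonic acid to 5-lipoxygenase, was likewise a myeloid transcript. Monocyte or macrophage barcodes stood at 1016 CPM in IR 24 hours against 954 CPM in CON 24 hours (ratio 1.07, 0.859 to 1.33), and at 862 CPM in IR 56 days against 936 CPM in CON 56 days (0.921, 0.788 to 1.07). Both intervals include 1. Neutrophils stood at 1647 CPM in IR 24 hours against 911 CPM in CON 24 hours (1.81, 1.42 to 2.30), and at 953 CPM in IR 56 days against 1025 CPM in CON 56 days (0.930, 0.759 to 1.13). The 24-hour ratio stood beside a median log2 ratio of 0.64 over measured neutrophil genes. The neutrophil marker S100a8 alone took 62078 CPM in IR 24 hours against 190672 CPM in CON 24 hours. CPM of other genes depends on such shares, and their part in the ratio was not tested. Endothelial barcodes held 5, 3, 1 and 7 Alox5ap UMIs in IR 24 hours, CON 24 hours, IR 56 days and CON 56 days, in 0.331%, 0.640%, 0.213% and 0.772% of barcodes. That is no more than in B cells, where 0.943%, 0.813%, 1.67% and 1.35% had one at median depths of 3219.5, 3136.5, 3043.5 and 3205.5 UMIs, each on 1 or 2 positive B barcodes, so no endothelial expression is read from these UMIs. Summed over 10 neutrophil markers, endothelial barcodes without Ltc4s stood at 2.90 CPM in IR 24 hours, 22.6 CPM in CON 24 hours, 23.7 CPM in IR 56 days and 133 CPM in CON 56 days. Endothelium held 1.10% (0.357% to 2.54%) of the gated Alox5ap UMIs in IR 24 hours, against 92.4% of those of Ltc4s.

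**Figure D4:**
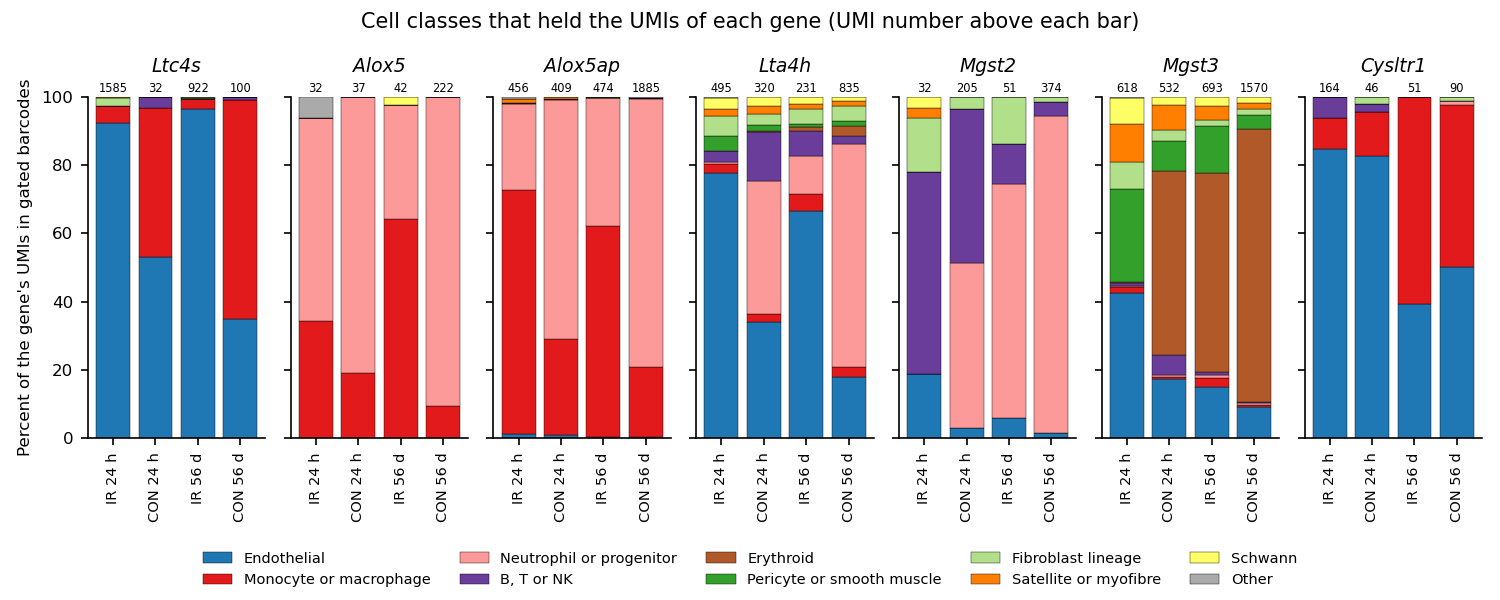
Percent of each gene's UMIs in gated barcodes by cell class, with 4 bars per gene for the libraries and the UMI number above each bar. Ltc4s is mainly endothelial in the IR libraries, while Alox5 and Alox5ap are in macrophages and neutrophils in all 4.

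Counted in single barcodes, genes of both steps, before and after leukotriene A4, met in macrophages and hardly at all in endothelium. Of 752 endothelial barcodes with an Ltc4s UMI, 2 (0.266%) had an Alox5ap UMI and 0 an Alox5 UMI, which allows up to 0.399%. Of 38 macrophage barcodes with Ltc4s, 35 (92.1%) had Alox5ap, 24 (63.2%) had Alox5 and 25 (65.8%) had Cysltr1. Among all 66 C1q-rich barcodes, with or without Ltc4s, the shares were 81.8%, 50% and 54.5% in the same order. All 147 neutrophils with Alox5 also had Alox5ap, while 2 of 288 neutrophils had an Ltc4s UMI. Nearly all neutrophils had Alox5ap, 98.2% of those with at least 3 UMIs of Camp, Ngp and Ltf and 94.4% of the others. C1q-rich macrophage barcodes had more Alox5 (135 against 11.7 CPM) and Cysltr1 (161 against 35.0 CPM) and less Alox5ap (649 against 1097 CPM) than those poor in C1q, over all libraries and at median depths of 5774 and 7177 UMIs.

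In sums over all kept barcodes, Alox5 was at 3.59 CPM in IR 24 hours against 6.31 CPM in CON 24 hours, and at 12.8 CPM in IR 56 days against 29.9 CPM in CON 56 days. Alox5ap was at 49.8 CPM in IR 24 hours against 81.3 CPM in CON 24 hours, and at 144 CPM in IR 56 days against 253 CPM in CON 56 days. In such sums fewer cells of a type and less RNA per cell cannot be told apart, and neutrophils made up 1.34% of kept barcodes in IR 24 hours, 2.02% in CON 24 hours, 1.65% in IR 56 days and 12.4% in CON 56 days. Over all kept barcodes 2 of the 7 members, Ltc4s and Cysltr1, were at least 1.5-fold higher in IR at 24 hours, where 34.6% of genes measured were, and 3, Alox5, Alox5ap and Mgst2, were lower, where 10.8% were. At 56 days 1 was higher (17.2% of genes) and 4 were lower (12.9% of genes). The 4 lower ones were Alox5, Alox5ap, Lta4h and Mgst2.

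Lta4h, of the leukotriene B4 branch, was seen in several classes, endothelium, neutrophils and monocytes or macrophages among them. Over all libraries, monocyte or macrophage barcodes poor in C1q stood at 59.6 CPM (43.7 to 79.5) and those rich in it at 26.0 CPM (13.0 to 46.5). Endothelial barcodes stood at 70.7 CPM in IR 24 hours against 63.0 CPM in CON 24 hours (1.12, 0.905 to 1.40), and at 81.0 CPM in IR 56 days against 58.1 CPM in CON 56 days (1.40, 1.11 to 1.76). The 56-day interval excludes 1. The ratio is under 1.5, but passed it with barcodes thinned to 1000 UMIs. The subtypes differed at 56 days. Arterial barcodes stood at 111 CPM (84.2 to 144) in IR against 50.7 CPM (33.4 to 73.8) in CON. Capillary intervals overlapped (57.5 to 99.3 in IR and 50.7 to 77.3 CPM in CON). Tip-like and venous levels were lower in IR, on few UMIs and with overlapping intervals. Neutrophils stood at 42.6 CPM on 3 UMIs in IR 24 hours against 304 CPM in CON 24 hours (0.140, 0.0281 to 0.430), and at 156 CPM in IR 56 days against 300.4 CPM in CON 56 days (0.519, 0.304 to 0.831). The neutrophils of the 24-hour libraries differed in early granule genes, and among those poor in them Lta4h had 1 UMI in 33 barcodes of IR 24 hours against 0 in 8 of CON 24 hours, so no difference was detectable there at this depth. Among endothelial barcodes with Ltc4s, 198 (26.3%) also had Lta4h. In IR 24 hours these were 132 of 502, where 301 of all 1512 endothelial barcodes had Lta4h. The barcodes with Ltc4s were deeper there, at a median of 3991 UMIs against 2535.5 without, so no co-expression is read from these shares. Thinned to 1000 UMIs, Lta4h was seen in 5.96% of endothelial barcodes in IR 24 hours against 7.04% in CON 24 hours, and in 10.1% in IR 56 days against 5.07% in CON 56 days, while T or NK cells of CON 24 hours had it in 5.80% of 138.

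The neutrophils of the libraries were not alike. In IR 24 hours 1 of 34 had at least 3 UMIs of Camp, Ngp and Ltf, genes of granule proteins made before neutrophils leave the bone marrow, against 19 of 27 in CON 24 hours, 11 of 16 in IR 56 days and 133 of 211 in CON 56 days. Their median depth was 1918.5 UMIs in IR 24 hours and 4472 to 5811 UMIs in the others. Csf3r, the receptor gene for the neutrophil growth factor G-CSF, was at 1803 CPM in IR 24 hours against 213 CPM in CON 24 hours. Over all libraries, the 164 granule-rich barcodes had more Lta4h (339 against 22.2 CPM) and Mgst2 (234 against 31.7 CPM) and less Alox5 (125 against 219 CPM) and Alox5ap (934 against 1461 CPM) than the 124 poor ones. Among neutrophils poor in these granule genes, Alox5ap at 24 hours was at 1735 CPM in IR against 1806 CPM in CON (0.960, 0.639 to 1.48). Among the granule-rich ones at 56 days, Lta4h kept a ratio of 0.484 (0.284 to 0.776), on 11 IR barcodes. The part of the granule genes in the neutrophil differences at 24 hours was otherwise not tested.

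**Figure D5:**
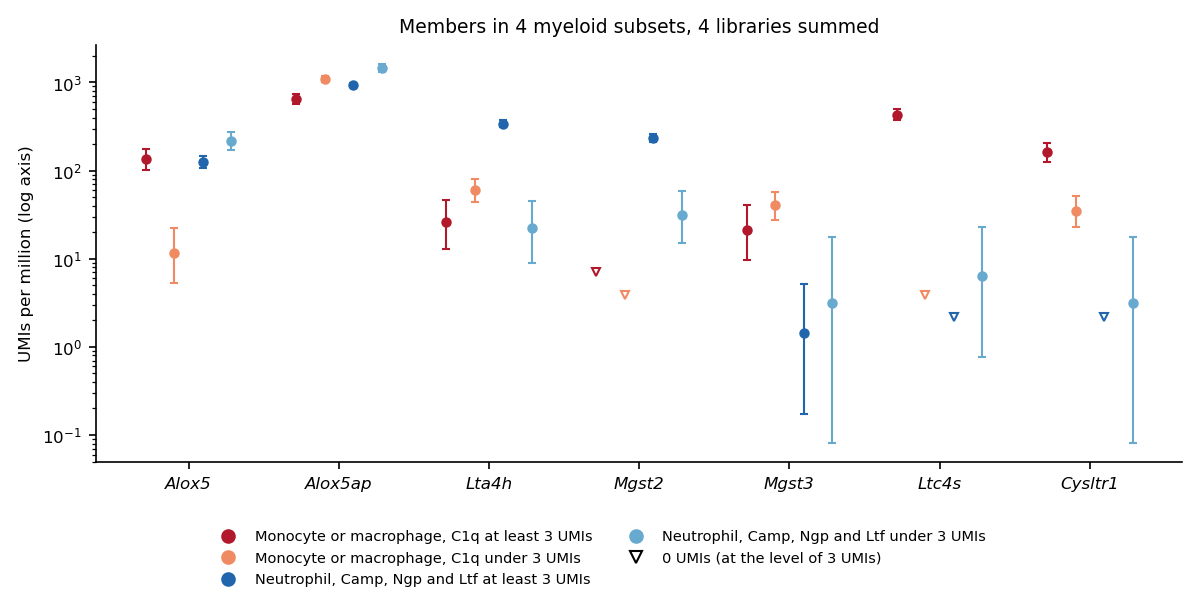
The 7 members in macrophage barcodes rich or poor in C1q and in neutrophils rich or poor in early granule genes, 4 libraries summed, in CPM on a log axis with exact 95% counting intervals. Open triangles mark 0 UMIs at the level of 3 UMIs. Ltc4s is at 432 CPM in C1q-rich macrophages, with 0 UMIs in C1q-poor ones, and Lta4h and Mgst2 lie in granule-rich neutrophils.

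The MAPEG relatives of Ltc4s had other homes. Mgst2, whose product can make leukotriene C4, had 6, 6, 3 and 5 UMIs in endothelial barcodes of IR 24 hours, CON 24 hours, IR 56 days and CON 56 days, and 0 in macrophage barcodes of all libraries, which allows a share of up to 5.45% in CON 56 days, the library with most of them. In neutrophils it had 0 UMIs in IR 24 hours against 44 UMIs (223 CPM) in CON 24 hours, at least 5.23-fold lower against a floor of 3 UMIs. Of those 44 UMIs, 41 lay in the 19 barcodes rich in early granule genes, of which IR 24 hours had 1. Among barcodes poor in them, Mgst2 had 0 UMIs in 33 barcodes of IR 24 hours, which allows up to 48.2 CPM, against 3 UMIs in 1 of 8 barcodes of CON 24 hours. At 56 days neutrophils stood at 234 CPM in IR against 200.04 CPM in CON (1.17, 0.756 to 1.74). T or NK cells had 10 UMIs (51.0 CPM) in IR 24 hours against 78 UMIs (96.1 CPM) in CON 24 hours, a ratio of 0.531 (0.245 to 1.03).

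Mgst3, a glutathione transferase and peroxidase gene, was found in many classes, with IR to CON ratios between 0.911 and 1.32 in those with most UMIs. Erythroid barcodes stood at 1397 CPM in IR 56 days against 1196 CPM in CON 56 days (1.17, 1.04 to 1.31), and at 653 CPM in CON 24 hours. IR 24 hours held only 2 erythroid barcodes. Pericyte or smooth muscle barcodes stood at 351 CPM in IR 24 hours against 340 CPM in CON 24 hours (1.03, 0.744 to 1.46), and at 403 CPM in IR 56 days against 304 CPM in CON 56 days (1.32, 0.957 to 1.84). Endothelial barcodes stood at 48.4 CPM in IR 24 hours against 53.1 CPM in CON 24 hours (0.911, 0.716 to 1.17), and at 54.2 CPM in IR 56 days against 56.5 CPM in CON 56 days (0.959, 0.737 to 1.24). Of these ratios only the erythroid one at 56 days had an interval that excludes 1, at under 1.5-fold.

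Cysltr1, the receptor for cysteinyl leukotrienes, was found mainly in endothelium and macrophages, and within endothelium mainly in venous barcodes. Venous barcodes had 100 UMIs (187 CPM, 152 to 228) in IR 24 hours against 29 UMIs (153 CPM, 103 to 220.0) in CON 24 hours, and 16 UMIs (71.3 CPM, 40.7 to 116) in IR 56 days against 41 UMIs (128 CPM, 91.6 to 173) in CON 56 days. Of venous barcodes, 38.2% had a UMI in IR 24 hours against 39.5% in CON 24 hours, and 17.8% in IR 56 days against 29.2% in CON 56 days. Capillary barcodes stood at 9.62 CPM in IR 24 hours against 8.92 CPM in CON 24 hours, and at 2.77 CPM in IR 56 days against 2.07 CPM in CON 56 days, the last values on 2 and 3 UMIs. Tip-like barcodes had 0 UMIs in all libraries and arterial barcodes 1 in all.
Over all endothelial barcodes the ratio of IR to CON was 1.17 (0.809 to 1.72) at 24 hours and 0.596 (0.333 to 1.03) at 56 days, both intervals including 1, and that of IR 56 days to IR 24 hours was 0.411 (0.244 to 0.660). Macrophage barcodes had 46.8 CPM in IR 24 hours against 49.4 CPM in CON 24 hours (0.947, 0.347 to 2.98), and 90.9 CPM in IR 56 days against 105 CPM in CON 56 days (0.869, 0.529 to 1.41). Of the 752 endothelial barcodes with Ltc4s, 24 (3.19%) also had Cysltr1.

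Counted by size over endothelial barcodes, 4 of the 7 members had at least 20 summed UMIs. At 24 hours Ltc4s was the 1 member at least 1.5-fold higher in IR, where 16.1% of 10923 genes were, and 0 members were lower, where 6.54% were. At 56 days Ltc4s was again the 1 higher, where 12.8% of 10107 genes were, and Cysltr1 the 1 lower, where 12.9% were. Between CON 56 days and CON 24 hours 0 of 4 passed 1.5-fold in either direction (12.9% of genes higher, 9.85% lower). Between IR 56 days and IR 24 hours Ltc4s was the 1 higher, where 9.29% of genes were, and Cysltr1 the 1 lower, where 16.1% were. Ltc4s was chosen from these contrasts, so nothing is read from its count. In neutrophils at 24 hours 50.8% of 1503 genes were at least 1.5-fold higher in IR, among them Alox5 and Alox5ap, and 17.3% lower, among them Lta4h and Mgst2.

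Other genes of eicosanoid synthesis and signalling, 48 in all, were measured in endothelium in part. At 24 hours 17 had at least 20 summed UMIs, 4 were at least 1.5-fold higher in IR, where 16.1% of all genes measured were, and 3 were lower, where 6.54% were. The median log2 ratio was 0.31 over the 16 with UMIs in both groups, or 0.32 over 17 with Ltb4r2 at its bound, against 0.07 over all genes measured with UMIs in both. At 56 days 16 were measured, 5 were higher, where 12.8% of genes were, and 1 was lower, where 12.9% were, and the median was 0.02, as it was over all genes. Gclc, the catalytic subunit of the first enzyme of glutathione synthesis, stood at 36.8 CPM in IR 24 hours against 19.1 CPM in CON 24 hours (1.93, 1.33 to 2.88), and its 56-day ratio was 0.824 (0.586 to 1.15). The low-affinity leukotriene B4 receptor gene Ltb4r2 had 25 UMIs in IR 24 hours against 0 in CON 24 hours, at least 2.65-fold higher against a floor of 3 UMIs, and 7 in IR 56 days against 0 in CON 56 days.
The prostanoid gene Ptgs1, cyclooxygenase 1, was at 33.5 CPM in IR 24 hours against 65.3 CPM in CON 24 hours (0.513, 0.404 to 0.655), with a 56-day ratio of 0.820 (0.627 to 1.07). Alox12, the platelet-type lipoxygenase, and Mgst1, a microsomal glutathione transferase, had ratios below 1 at 24 hours (0.522, 0.339 to 0.814, and 0.511, 0.384 to 0.683). At 56 days theirs were above 1 (1.57, 0.976 to 2.54, and 1.91, 1.30 to 2.84). The phospholipases Plaat3 and Pla2g6, which release fatty acids from membranes, had 56-day ratios of 1.90 (1.64 to 2.22) and 3.08 (1.41 to 7.26), Pla2g6 on 23 UMIs in IR against 10 in CON. Cotl1, a partner of 5-lipoxygenase, had a 56-day ratio of 5.75 (2.47 to 15.5) on 30 UMIs in IR against 7 in CON. Abcc1, the exporter of leukotriene C4, had 1.52 (0.908 to 2.69) at 24 hours, and Gss 0.650 (0.334 to 1.22) at 56 days, both with intervals that include 1.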

How the data were processed

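Droplet single-cell RNA-seq libraries of hindlimb muscle (10x Genomics) were deposited as gene-by-barcode UMI counts. Per the submitters' processing notes the authors used Cell Ranger 5.0.0 and mm10. The deposited counts are raw. There was 1 library for each group, limbs were pooled before sorting, and the filter used by the authors is not given in the sources used here.

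The limits for a kept barcode were 200 genes, 500 UMIs and a mitochondrial share of 20%. A barcode entered a class when at least 3 of its markers had a UMI (2 for mast cells, eosinophils and basophils; for myofibre at least 5% of UMIs), barcodes in several classes being set aside. Tenocytes, lymphatic cells and granulocyte-monocyte progenitors left their wider class. Arterial, venous and tip-like subtypes needed at least 2 markers of only 1 of these lists, whatever their capillary markers. Capillary barcodes needed at least 2 markers of the capillary list and under 2 of each other list. UMIs were summed per class and library and divided by the class total (CPM). Ratios have exact conditional binomial intervals, levels exact Poisson and shares Clopper-Pearson intervals, all at 95%. UMI counts are of independent molecules only as far as the deposited counting collapsed them, and classes of 16 to 55 barcodes give wide intervals. Genes with at least 20 summed UMIs counted as measured, and 1.5-fold as the size threshold. A count of 0 was bounded by 3 UMIs or barcodes. Alternatives covered the barcode filter, mitochondrial limit, gate, clustering, thinning to 1000 UMIs, scaling, doublet scores, weighting of barcodes and the richest barcode. A doublet caller marked 24 of 6544 barcodes (0.367%) and was taken not to have worked, so no barcode was removed as a doublet. Its scores were still used for an alternative that is among the recomputed values, and nothing about doublets is read from it. The sum of counts and intervals was tested on simulated data.

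All 7 members were described, other eicosanoid genes where measured, and the 5 genes most like Ltc4s. The members and lists were chosen with earlier results of these data known, and gate limits, the C1q and granule splits and the neighbouring genes after seeing the data. Gene positions are those of mm10 (GENCODE), and promoters were matched for 5 of 7 members. Python 3.11.15, numpy 2.4.6, scipy 1.17.1, pandas 2.3.3, scanpy 1.11.5 and matplotlib 3.10.9 were used.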

Additional observations from a re-analysis of the deposited data

Results flagged for a closer look

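Ltc4s pointed in opposite directions in the 2 classes that held it at 56 days: the IR to CON ratio was 34.1 in endothelial barcodes and 0.490 in monocyte or macrophage barcodes. Within monocyte or macrophage barcodes it also pointed in opposite directions over time, with a ratio of 2.14 at 24 hours and 0.490 at 56 days. In the C1q-rich barcodes, which held all macrophage Ltc4s, the interval of the 24-hour ratio included 1, on 18 IR and 7 CON barcodes. Lta4h at 56 days had a ratio of 1.40 in endothelial barcodes and 0.519 in neutrophils. Of the vessel subtypes, only arterial barcodes had Lta4h intervals that did not overlap between IR and CON at that time. Each pair of whole-class ratios has counting intervals on opposite sides of 1, and the difference itself was not tested, since each group was 1 library.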

How the results depend on the processing

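Of 62 recomputed values, 52 stayed within the counting interval, or for counts within 1.5 times, of the reported value, and no direction was reversed. The log2 ratio of endothelial Ltc4s in IR over CON lay between 4.36 and 5.24 at 24 hours and between 4.95 and 5.67 at 56 days, the highest with barcodes thinned to 1000 UMIs (5.67 against 5.09 reported). The log2 ratio of endothelial Ltc4s in CON 56 days over CON 24 hours lay between 0.03 and 0.72 (0.48 reported). The endothelial share of gated Ltc4s UMIs in IR 24 hours, reported as 92.4%, was 99.4% with barcodes that held no UMI of another class list, 96.5% after thinning and 88.8% with Leiden clusters in place of gates. That of Alox5ap, reported as 1.10%, was 7.69% (1 of 13 UMIs) under the strict gate and 3.63% with every barcode that passed the endothelial gate, an alternative chosen after seeing the data. The number of members past 1.5-fold at 24 hours was 2 in place of 1 under the strict gate and after thinning (Cysltr1 higher) and with at least 10 summed UMIs (Mgst2 lower). At 56 days it was 1 in place of 2 with the top 5% of doublet scores left out, where Cysltr1 no longer passed. These scores came from the caller taken not to have worked. After thinning the number at 56 days stayed 2, but Cysltr1 no longer passed and Lta4h, higher in IR, did. The causes were not tested. No paired analysis was possible because each group was 1 library of pooled limbs. Counting intervals leave out the variation between animals, which these libraries cannot show, and depth limits statements on classes of few barcodes.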

Other observations

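Neutrophils differed in other eicosanoid genes too. Ptgs2, the inducible cyclooxygenase, stood in neutrophils at 2655 CPM (187 UMIs) in IR 24 hours against 111 CPM (22 UMIs) in CON 24 hours, and at 208 CPM (24 UMIs) in IR 56 days against 283 CPM (372 UMIs) in CON 56 days. Ltb4r1, the high-affinity leukotriene B4 receptor of neutrophils, was at 42.6 CPM on 3 UMIs in IR 24 hours against 319 CPM on 63 UMIs in CON 24 hours, and at 234 CPM in IR 56 days against 212 CPM in CON 56 days. The IR 24 hours neutrophils were the shallow barcodes poor in early granule genes, and the part of that in these values was not tested. Dpep1, a dipeptidase that trims leukotriene D4, was found in fibro-adipogenic progenitors, at 158 CPM in IR 24 hours against 244 CPM in CON 24 hours and at 267 CPM in IR 56 days against 455 CPM in CON 56 days. Ggt5, which trims leukotriene C4, stood in pericyte or smooth muscle barcodes at 92.9 CPM in IR 24 hours against 116 CPM in CON 24 hours and at 104 CPM in IR 56 days against 122 CPM in CON 56 days.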
